A study of Mus musculus with 9 samples.

Results

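The carboxylesterases described here are the 10 genes Ces1c, Ces1d, Ces1e, Ces1f, Ces1g, Ces2a, Ces2c, Ces2e, Ces3a and Ces3b, measured by RNA sequencing in livers of mice labelled ApoE-/-. They were chosen by gene symbol alone, as named in GENCODE M21, out of 54532 gene identifiers in the deposited count table, and all 10 were among the 14763 genes with enough counts to be tested. Carboxylesterases are serine hydrolases that cut carboxylic ester bonds in lipids, drugs and other foreign compounds, and the liver is a main site of their expression. Most members stay inside the endoplasmic reticulum, held there by a short retention signal at the protein's end, where some release fatty acids from stored triacylglycerol and supply lipid for very-low-density lipoprotein (VLDL) assembly. In mice Ces1c is the exception: it is secreted and provides much of the esterase activity of plasma.

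The 9 mice were described as male C57BL/6 ApoE-/- animals, 3 per group, a genotype that lacks apolipoprotein E, a ligand for the uptake of lipoprotein remnants. In 1 HFD + IgG1 library the Apoe counts went against that label. In the HFD + IgG1 group (replicates 5, 6 and 7), mice ate a high-fat diet from 4 weeks of age for 20 weeks, with 41% of calories as fat, 43% as carbohydrate and 17% as protein. After 1 week on chow they were injected intraperitoneally with 3 mg of recombinant human IgG1 at 25, 26 and 27 weeks and killed at 29 weeks. The HFD + PBS group (replicates 3, 4 and 6) had the same diet and schedule with phosphate-buffered saline. The normal diet group (replicates 4, 5 and 6) was a control for which neither injections nor age at death were given, so diet cannot be told apart from these. Livers were picked for sequencing after Oil Red O staining and a triglyceride assay, which limits them as a random sample of each group. The antibody livers' own labels read IgG1 for replicate 5, IgG2 for replicate 6 and IgG3 for replicate 7, while the titles and the design place all 3 in 1 IgG1 group.

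Between 16215194 and 18538463 counts were assigned to genes in each library. Levels are given as CPM, counts scaled to a common library size with TMM factors, and levels of different genes are compared only as CPM per kilobase of the longest protein-coding transcript. Hepatocyte markers were abundant in every library, with a summed level of at least 56280 CPM. The library labelled HFD + IgG1 replicate 5 had 235888 Apoe counts, against 225 to 1655 in the others. The libraries labelled HFD + PBS replicate 6 and normal diet replicate 5 had 0 Y-linked counts and 10970 and 17065 Xist counts, against 2837 to 3385 Y-linked counts and at most 4 Xist counts elsewhere. Results are therefore also given with these 3 mismatched libraries left out, which leaves 2 per group. Over all 14763 genes, no gene passed an adjusted p of 0.05 in edgeR's quasi-likelihood test in any of the 3 comparisons. At an unadjusted p under 0.05 edgeR gave 3076 genes for HFD + PBS against normal diet, 3569 for HFD + IgG1 against HFD + PBS and 1040 for HFD + IgG1 against normal diet. DESeq2 called 1184, 1265 and 111 genes in the same order of comparisons, and limma-voom called 0 in each.

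All 10 genes lie on chromosome 8 in 2 clusters (mm10). The 5 Ces1 genes are all on the minus strand within 238.3 kb: Ces1c at chr8:93099015-93131283, Ces1d at chr8:93166068-93197838, Ces1e at chr8:93201218-93229619, Ces1f at chr8:93256236-93279747 and Ces1g at chr8:93302369-93337308. The 5 Ces2 and Ces3 genes are all on the plus strand within 359.9 kb: Ces2a at chr8:104734003-104741634, Ces2c at chr8:104847068-104854483, Ces2e at chr8:104926260-104934672, Ces3a at chr8:105048601-105058413 and Ces3b at chr8:105083753-105093929. Ces1d, Ces1e and Ces1f, the Ces1 genes whose levels differed most between groups, lie next to each other, with Ces1c and Ces1g, which differed least, on either side.

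The promoters printed here are RefSeq sequences of GRCm38.p6, from 250 bases before to 50 bases after the start site, and were found for 7 of the 10 genes, the exceptions being Ces1d, Ces1f and Ces3a. 4 sets of letters were searched on both strands: TATAAA, the core of a TATA box, GTTAAT, part of sites of HNF1 factors, AGGTCA, a nuclear receptor half-site, and TTATGTAA, letters of the D-box to which the factors Dbp, Tef and Hlf bind in other genes. The last was chosen after these sequences had been seen. None of the 4 overlaps another in the sequences printed, where matches are in capitals. Ces1e is shown as the middle one of the Ces1 genes described here, with large fold changes. Ces1c and Ces1g are shown as the outermost of these Ces1 genes, with the smallest fold changes in the comparisons with HFD + PBS livers. Ces3b is shown as the representative of the Ces3 pair.
Ces1e, chr8:93229570-93229869, minus strand: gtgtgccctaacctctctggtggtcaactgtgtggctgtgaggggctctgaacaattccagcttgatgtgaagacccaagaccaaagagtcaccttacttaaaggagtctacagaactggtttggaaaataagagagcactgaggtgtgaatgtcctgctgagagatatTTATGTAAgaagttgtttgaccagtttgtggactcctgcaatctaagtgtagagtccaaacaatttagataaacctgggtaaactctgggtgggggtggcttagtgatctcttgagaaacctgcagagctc
Ces1c, chr8:93131234-93131533, minus strand: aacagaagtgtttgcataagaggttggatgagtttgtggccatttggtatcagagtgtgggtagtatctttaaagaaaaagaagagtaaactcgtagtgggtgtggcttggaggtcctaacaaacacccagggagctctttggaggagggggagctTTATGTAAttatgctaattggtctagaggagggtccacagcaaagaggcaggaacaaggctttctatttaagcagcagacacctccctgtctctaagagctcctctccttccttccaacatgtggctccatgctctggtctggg
Ces1g, chr8:93337160-93337459, minus strand: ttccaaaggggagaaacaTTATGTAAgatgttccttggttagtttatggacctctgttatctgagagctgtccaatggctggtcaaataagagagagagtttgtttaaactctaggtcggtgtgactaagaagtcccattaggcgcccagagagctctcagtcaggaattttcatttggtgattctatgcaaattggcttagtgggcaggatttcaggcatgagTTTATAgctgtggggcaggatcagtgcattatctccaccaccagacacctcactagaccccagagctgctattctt
Ces3b, chr8:105083505-105083804, plus strand: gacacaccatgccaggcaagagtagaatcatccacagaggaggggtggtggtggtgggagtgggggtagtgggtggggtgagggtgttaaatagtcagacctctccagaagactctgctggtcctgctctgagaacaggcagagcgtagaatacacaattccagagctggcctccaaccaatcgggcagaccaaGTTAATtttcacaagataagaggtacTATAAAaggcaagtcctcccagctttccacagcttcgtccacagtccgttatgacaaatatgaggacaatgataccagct
TTATGTAA was present in 3 of the 7 promoters and in 0.955% of all 27025 promoters of this length in the RefSeq table. Counted from the start site, it began at position -81 in Ces1e, -94 in Ces1c and -232 in Ces1g, so it was shared by a gene with large group differences and 2 genes with small ones. TATAAA was present in 2 of 7, against 14.2% of all promoters. These were Ces1g, at -26 and on the opposite strand, and Ces3b, at -30. The RefSeq start site of Ces1g lies inside the gene span given above, so positions in Ces1g depend on the annotation used. GTTAAT began at -56 in Ces3b (7.2% of all promoters), and AGGTCA at -226 in Ces2a (16% of all promoters). Ces2c and Ces2e held none of these letters. A match describes the letters and is not evidence that a factor binds.

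Ces1c was the most abundant carboxylesterase in each of the 9 livers. In CPM per kilobase it averaged 1403 ± 116 in HFD + IgG1 livers, 1183 ± 365 in HFD + PBS livers and 1113 ± 123 in normal-diet livers (SD, n = 3 each), and by mean CPM it ranked 53rd of the 14763 genes. Ces3a was next in all 3 group means, with 507 ± 318, 92.3 ± 12.7 and 458 ± 252 CPM per kilobase in the same order, followed in HFD + IgG1 and normal-diet livers by Ces1d and Ces1f. Ces2c was lowest in every group mean, at 8.76, 3.73 and 5.50 CPM per kilobase. The ranges of Ces1c and Ces3a were apart in each group. Most other neighbours in this order overlapped: in HFD + PBS livers Ces3a, Ces1g, Ces1d and Ces2a had means between 60.0 and 92.3 CPM per kilobase and each overlapped the next. Between groups the place of Ces1f varied most: it was 4th in HFD + IgG1 livers, 8th in HFD + PBS livers and 4th in normal-diet livers. With the length of all exons combined in place of 1 transcript, Ces1f was 6th, 9th and 6th, and Ces1g stood 2nd in HFD + PBS livers.

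Ces1c made up a larger share of the family in HFD + PBS than in normal-diet livers. Ces1c alone supplied 40.3%, 69.1% and 42.8% of the summed CPM per kilobase of the 10 genes in HFD + IgG1 replicates 5, 6 and 7. Its share was 66.1%, 77.5% and 77.3% in HFD + PBS livers and 50.6%, 60.5% and 42.9% in normal-diet livers. The share was thus above every normal-diet value in all 3 HFD + PBS livers, and HFD + IgG1 replicate 6 lay within the HFD + PBS range. The other 9 genes together summed to 2250, 630 and 1714 CPM per kilobase in HFD + IgG1 livers, 391, 413 and 402 in HFD + PBS livers, and 1106, 641 and 1630 in normal-diet livers. The 3 HFD + PBS sums lay close together and below all 6 others, while the sums in each other group were spread over more than a doubling. In bulk liver, fewer hepatocytes and less carboxylesterase RNA per hepatocyte cannot be told apart.

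**Figure D1:**
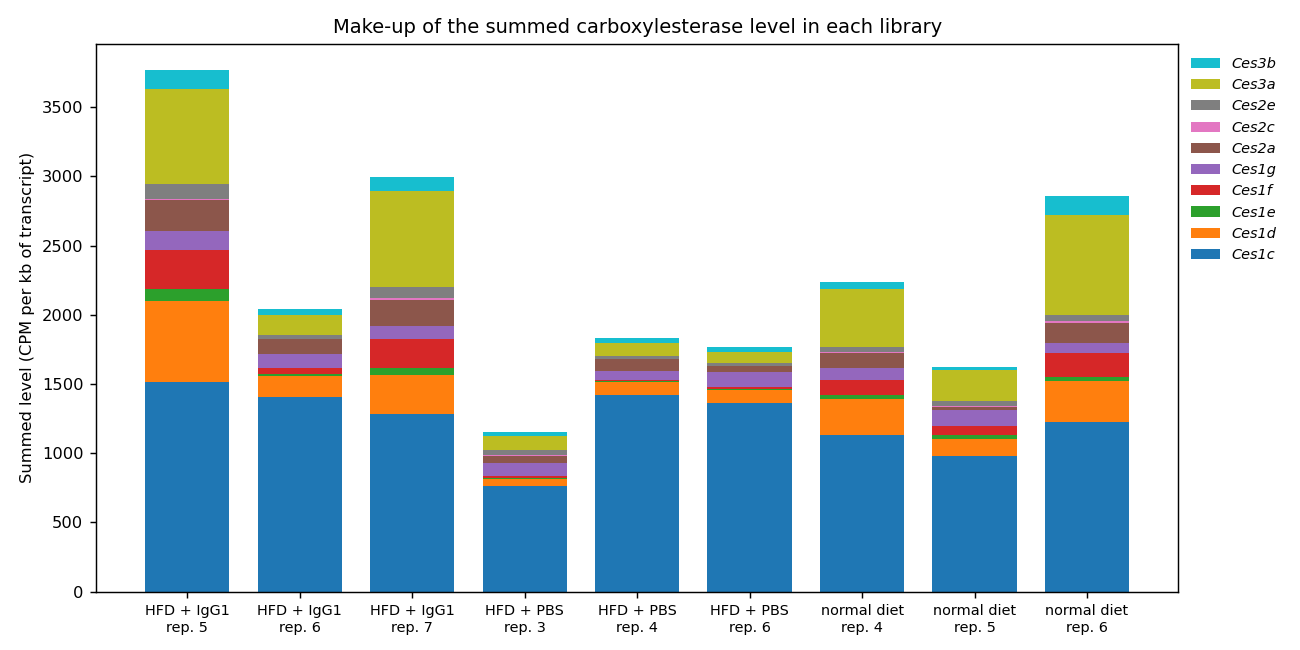
Stacked bars give the level of each of the 10 carboxylesterases (CPM per kilobase of transcript, linear axis from 0) in each of the 9 libraries, with HFD + IgG1 on the left, then HFD + PBS and normal diet. Ces1c forms the base of every bar, and the part above it sums to 391 to 413 in HFD + PBS livers, against 641 to 1630 in normal-diet livers.

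HFD + PBS livers had less carboxylesterase mRNA than normal-diet livers for 9 of the 10 genes, and HFD + IgG1 livers had more than HFD + PBS livers for all 10, although no gene passed edgeR's adjusted threshold. For HFD + PBS against normal diet the median log2 fold change of the 10 was -0.83, against -0.003 over all 14763 genes. A log2 fold change of -1 or below, a halving or more, was found in 5 members and in 4.17% of all genes, and a negative one in 50.3% of all genes. In 4 members, Ces1d, Ces1e, Ces1f and Ces3a, all HFD + PBS livers lay below all normal-diet livers, which was so for 15.3% of all genes. The same 4 had an unadjusted edgeR p under 0.05 in that direction, as had 11.4% of all genes. Adjusted over all genes, edgeR called 0 of the 10 (background 0.0%), limma-voom called 0, and DESeq2 called the same 4 as lower, against 4.42% of all genes.

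For HFD + IgG1 against HFD + PBS the median log2 fold change of the 10 was 1.52, against 0.037 over all genes, and 52.8% of all genes had a positive one. A log2 fold change of 1 or above, a doubling or more, was found in 8 members and in 3.65% of all genes. The groups did not overlap in 6 members (Ces1d, Ces1e, Ces1f, Ces2a, Ces3a and Ces3b), HFD + IgG1 being the higher, as in 15.3% of all genes. The unadjusted edgeR p was under 0.05 for 6 members (Ces1d, Ces1e, Ces1f, Ces2a, Ces2e and Ces3a), as for 12.6% of all genes in that direction. Adjusted over all genes, edgeR called 0 of the 10 (background 0.0%) and limma-voom 0. DESeq2 called 5 as higher (Ces1d, Ces1e, Ces1f, Ces2e and Ces3a), against 3.82% of all genes. This comparison and the previous one share the HFD + PBS livers, so a low HFD + PBS value lowers the one fold change and raises the other.

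The count of 0 members called by edgeR depended on HFD + IgG1 replicate 6. In 8 of the 10 genes, all but Ces1c and Ces1g, this liver had the lowest level of its group, and without it edgeR called 5 members higher in HFD + IgG1 than in HFD + PBS livers, against 7.12% of all genes. These were Ces1d, Ces1e, Ces1f, Ces2e and Ces3a, with edgeR adjusted p of 0.00981, 0.00118, 0.0133, 0.00482 and 0.00448. The antibody livers left there were replicate 7 and replicate 5, of which replicate 5 is the library with 235888 Apoe counts. Without replicate 5, edgeR called 0 of the 10, with a lowest adjusted p of 0.437, and without the 3 mismatched libraries it called 0, with a lowest adjusted p of 0.566. Without HFD + IgG1 replicate 6 edgeR also called 2 members lower in HFD + PBS than in normal-diet livers, against 2.14% of all genes. These were Ces1e (edgeR adjusted p = 0.0137) and Ces3a (edgeR adjusted p = 0.0233), through the shared estimate of the spread. Fitting only the 6 livers compared gave the same 2 calls, against 0.637% of all genes. With HFD + IgG1 replicate 5 as the lone antibody liver, the only one whose own label reads IgG1, edgeR called Ces1d, Ces1e, Ces2e and Ces3a higher than in HFD + PBS livers, against 1.56% of all genes; that lone liver was assumed to vary like the other groups.

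**Figure D2:**
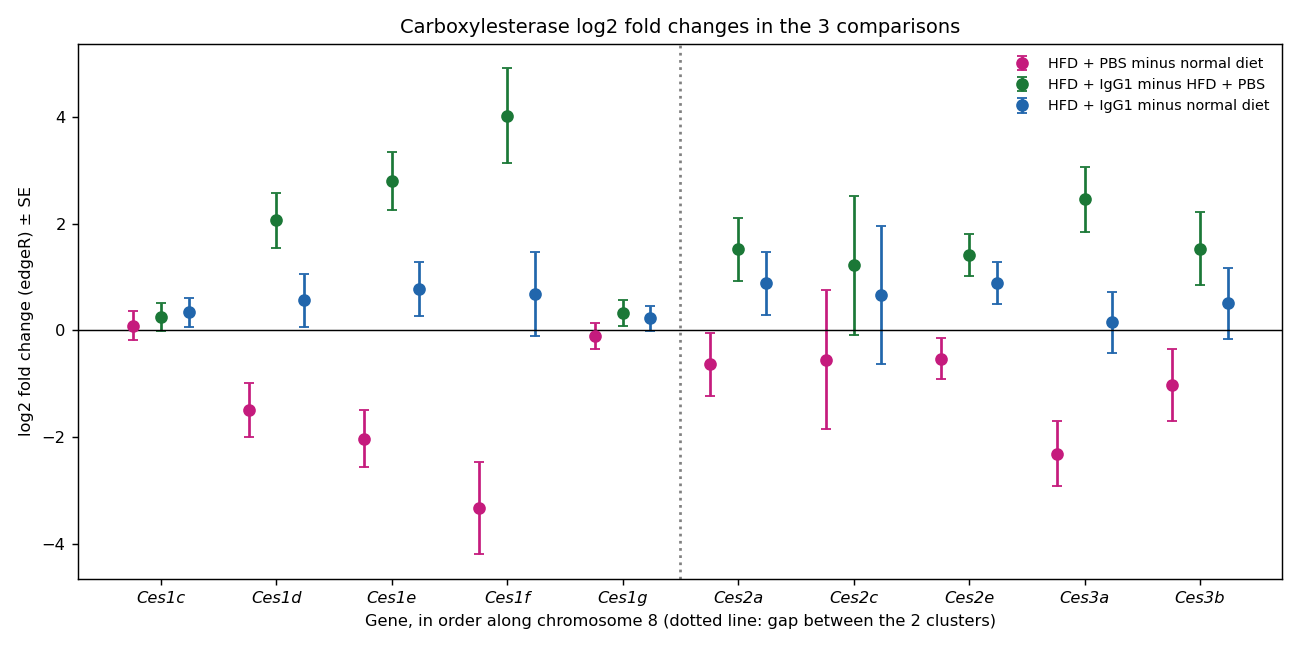
Log2 fold changes from edgeR (points) with their standard errors (bars) for the 10 genes in chromosomal order, in the 3 comparisons. Ces1d, Ces1e, Ces1f and Ces3a lie at -1.49 to -3.34 for HFD + PBS against normal diet and at 2.06 to 4.02 for HFD + IgG1 against HFD + PBS, while Ces1c and Ces1g lie within 0.34 of 0 in all 3.

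Among the Ces1 genes, Ces1d, Ces1e and Ces1f had the widest differences between groups. Ces1d encodes triacylglycerol hydrolase, the enzyme that mobilises stored hepatic triacylglycerol for VLDL assembly. It had 1163, 293 and 557 CPM in HFD + IgG1 livers, 111, 193 and 179.5 CPM in HFD + PBS livers and 514, 248 and 597 CPM in normal-diet livers. All HFD + PBS livers were below the other 6, and the other groups overlapped each other. The log2 fold change was -1.49 ± 0.51 (SE) for HFD + PBS against normal diet (edgeR adjusted p = 0.163) and 2.06 ± 0.52 for HFD + IgG1 against HFD + PBS (edgeR adjusted p = 0.14). Leaving out the 3 mismatched libraries, these were -1.84 and 1.43. The DESeq2 adjusted p was 0.0285 and 0.00254.

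Ces1f, another triacylglycerol hydrolase of the liver, showed the largest fold changes of the 10. It had 552, 86.6 and 406 CPM in HFD + IgG1 livers, 26.8, 5.03 and 32.5 CPM in HFD + PBS livers and 199, 127 and 325 CPM in normal-diet livers. The highest HFD + PBS liver was below the lowest of both other groups, and the lowest, replicate 4, held 88 counts. HFD + PBS livers were 10.1-fold lower than normal-diet livers (log2 fold change -3.34 ± 0.86, edgeR adjusted p = 0.119). HFD + IgG1 livers were 16.2-fold higher than HFD + PBS livers (log2 fold change 4.02 ± 0.89, edgeR adjusted p = 0.14). The standard errors were the second widest of the family, after Ces2c, and the 95% interval of the HFD + IgG1 difference ran from 1.97 to 6.07 on the log2 scale. Without the 3 libraries the values were -4.00 and 3.88, and the DESeq2 adjusted p over all libraries was 0.0047 and 0.00104. Set against Ces1c in the same library, Ces1f stood at 0.189, 0.0319 and 0.164 of its CPM per kilobase in HFD + IgG1 livers, 0.0183, 0.00184 and 0.0124 in HFD + PBS livers and 0.0911, 0.0674 and 0.138 in normal-diet livers. This within-library ratio does not use the scaling between libraries, and it too was lowest in the HFD + PBS livers. It mostly repeats the Ces1f levels, because Ces1c varied far less between livers, so it is not a separate test.

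Ces1e encodes egasyn, which binds beta-glucuronidase and holds part of it in the endoplasmic reticulum. It had 179.8, 31.3 and 116 CPM in HFD + IgG1 livers, 12.8, 13.7 and 20.3 CPM in HFD + PBS livers and 72.7, 55.7 and 62.8 CPM in normal-diet livers. HFD + PBS livers were lowest throughout, the 3 normal-diet livers lay close together, and HFD + IgG1 replicate 6 lay between those groups while replicates 5 and 7 were above both. The log2 fold change was -2.03 ± 0.53 for HFD + PBS against normal diet (edgeR adjusted p = 0.115) and 2.81 ± 0.54 for HFD + IgG1 against HFD + PBS (edgeR adjusted p = 0.14); in the second comparison its unadjusted p of 0.000683 was the smallest of the 10. With the mismatched libraries left out the values were -2.32 and 2.42, and the DESeq2 adjusted p over all libraries was 0.00171 and 8e-06. Gusb, which encodes beta-glucuronidase, had its highest group mean in HFD + PBS livers: it averaged 46.7 ± 8.57 CPM in HFD + IgG1 livers, 69.6 ± 6.88 CPM in HFD + PBS livers and 41.6 ± 3.65 CPM in normal-diet livers (SD, n = 3 each). Its HFD + PBS livers did not overlap either other group, with log2 fold changes of 0.74 ± 0.16 against normal diet (edgeR adjusted p = 0.0786) and -0.58 ± 0.16 for HFD + IgG1 against HFD + PBS (edgeR adjusted p = 0.14).

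**Figure D3:**
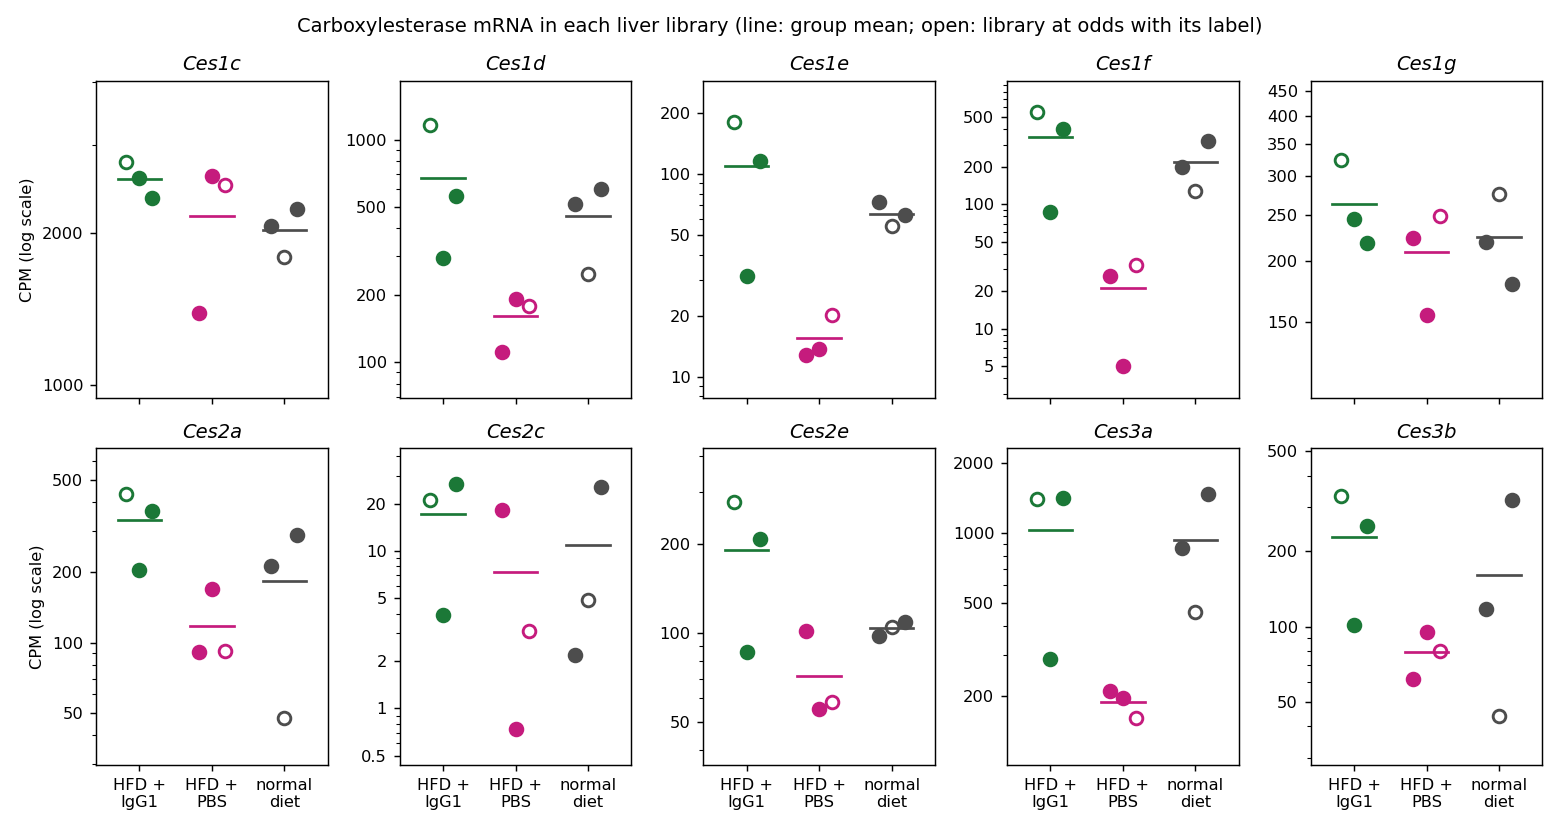
Level of each gene in each library (CPM, log axis, a panel per gene), with HFD + IgG1 left, HFD + PBS in the middle and normal diet right; lines are group means and open circles are the 3 mismatched libraries. In Ces1d, Ces1e, Ces1f and Ces3a every HFD + PBS point lies below every other point, for example 5.03 to 32.5 CPM against 86.6 CPM or more for Ces1f.

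Ces1c and Ces1g, which flank those 3 genes, had the smallest fold changes of the family in both comparisons with HFD + PBS livers. Ces1c had 2772, 2575 and 2348 CPM in HFD + IgG1 livers, 1393, 2597 and 2496 CPM in HFD + PBS livers and 2070, 1794 and 2238 CPM in normal-diet livers. The HFD + PBS range covered most of both others, since replicate 3 was the lowest liver of all and replicate 4 the second highest. HFD + IgG1 and normal-diet livers did not overlap, with a log2 fold change of 0.34 ± 0.27 (edgeR adjusted p = 0.81). For HFD + PBS against normal diet the log2 fold change was 0.088, with a 95% interval of -0.51 to 0.68, and its sign turned without the 3 libraries (-0.082). For HFD + IgG1 against HFD + PBS it was 0.25, with an interval of -0.35 to 0.84. Of the 50-base windows of Ces1c, 17.0% occur exactly in another gene, mostly Ces1b.

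Ces1g, a hydrolase whose loss in mice raises hepatic lipid synthesis and plasma lipids, had 325, 245 and 218 CPM in HFD + IgG1 livers, 224, 155 and 248 CPM in HFD + PBS livers and 219.7, 276 and 179 CPM in normal-diet livers. All 3 groups overlapped. The log2 fold change was -0.11 for HFD + PBS against normal diet (95% interval -0.64 to 0.43) and 0.33 for HFD + IgG1 against HFD + PBS (-0.21 to 0.87). These intervals excluded a doubling or a halving, which the estimates for Ces1d, Ces1e and Ces1f exceeded. The 95% intervals of Ces1d, however, also held smaller changes, at -2.64 to -0.35 and 0.89 to 3.22 in the same order of comparisons. So did that of Ces1e for HFD + PBS against normal diet, at -3.235 to -0.82, while those of Ces1f did not. Differences between these genes in their fold changes were not tested. In CPM per kilobase, Ces1g was 0.475, 2.28 and 0.433 times Ces1f in HFD + IgG1 livers, 6.74, 24.8 and 6.17 times in HFD + PBS livers, and 0.892, 1.75 and 0.445 times in normal-diet livers. By this length Ces1g was the more abundant of these neighbours in all HFD + PBS livers, but in only 1 HFD + IgG1 and 1 normal-diet liver. With the length of all exons combined, mean CPM per kilobase was 94.2 for Ces1g and 66.0 for Ces1f in normal-diet livers. In HFD + IgG1 livers it was 110 and 106, so their order in these 2 groups depends on the length used.

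Of the Ces2 genes, which prefer esters with a large alcohol and a small acyl group, Ces2a was the most abundant. It had 436, 206 and 368 CPM in HFD + IgG1 livers, 90.9, 170.5 and 91.6 CPM in HFD + PBS livers and 213, 47.4 and 288 CPM in normal-diet livers. HFD + IgG1 livers were all above HFD + PBS livers, but normal diet replicate 5, 1 of the 3 mismatched libraries, was the lowest of all 9, so the other comparison overlapped. The log2 fold change was 1.51 ± 0.60 for HFD + IgG1 against HFD + PBS (edgeR adjusted p = 0.18) and -0.64 ± 0.59 for HFD + PBS against normal diet (edgeR adjusted p = 0.566). In the 6 libraries that matched their labels the values were 1.08 and -0.91, and neither comparison then overlapped. With a term for the presence of Y-linked counts the unadjusted edgeR p of the first was 0.0817, against 0.033 without that term. Of the 50-base windows of Ces2a, 22.2% occur exactly in another gene, mostly Gm7208, so its counts are also uncertain by sequence.

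Ces2e had 279, 86.1 and 209 CPM in HFD + IgG1 livers, 102, 55.0 and 58.3 CPM in HFD + PBS livers and 97.3, 105 and 109 CPM in normal-diet livers. The normal-diet livers spanned 97.3 to 109 CPM, and HFD + PBS replicate 3 lay among them while replicates 4 and 6 lay below. HFD + IgG1 replicates 5 and 7 were the highest of the 9 livers and replicate 6 was below HFD + PBS replicate 3. The log2 fold change was 1.42 ± 0.39 for HFD + IgG1 against HFD + PBS (edgeR adjusted p = 0.14, DESeq2 adjusted p = 0.0131) and -0.53 ± 0.39 for HFD + PBS against normal diet (edgeR adjusted p = 0.462). Among libraries that matched their labels the first was 0.86 and the second -0.37.

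Ces2c, a lipase of the Ces2 subfamily, was the least abundant and the most variable gene. It had 21.1, 3.9 and 26.8 CPM in HFD + IgG1 livers, 18.2, 0.743 and 3.10 CPM in HFD + PBS livers and 2.2, 4.9 and 25.4 CPM in normal-diet livers. Within HFD + PBS the highest liver was 24.5 times the lowest, which held 13 counts, and within normal diet it was 11.6 times. All groups overlapped, and no difference was detectable against this spread: the 95% interval of the log2 fold change ran from -1.85 to 4.28 for HFD + IgG1 against HFD + PBS and from -3.60 to 2.50 for HFD + PBS against normal diet. Counts of Ces2c are also the least certain by sequence, since 42.2% of its 50-base windows occur exactly in another gene, mostly the pseudogene Ces2d-ps.

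Ces3a and Ces3b are neighbouring hydrolase genes whose transcripts are 95.4% identical. Ces3a had 1404, 287 and 1423 CPM in HFD + IgG1 livers, 211, 196 and 160.1 CPM in HFD + PBS livers and 868, 460.2 and 1484 CPM in normal-diet livers. The HFD + PBS livers lay close together and below all 6 other livers, and HFD + IgG1 replicate 6 was the lowest of those 6. HFD + PBS was 4.96-fold lower than normal diet (log2 fold change -2.31 ± 0.61, edgeR adjusted p = 0.114, DESeq2 adjusted p = 0.00105). HFD + IgG1 was 5.5-fold higher than HFD + PBS (log2 fold change 2.46 ± 0.61, edgeR adjusted p = 0.14, DESeq2 adjusted p = 0.00106). Without the 3 libraries the values were -2.50 and 2.01.

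Ces3b had 332, 101 and 251 CPM in HFD + IgG1 livers, 62.0, 94.7 and 80.2 CPM in HFD + PBS livers and 118, 44.1 and 319.7 CPM in normal-diet livers. HFD + IgG1 and HFD + PBS livers did not overlap, by a margin of 101.4 against 94.7 CPM. Normal diet replicate 5 was again the lowest liver of all, so HFD + PBS and normal diet overlapped. The log2 fold change was 1.53 ± 0.68 (edgeR adjusted p = 0.213) for HFD + IgG1 against HFD + PBS and -1.02 ± 0.67 (edgeR adjusted p = 0.419) for HFD + PBS against normal diet, or 1.12 and -1.45 without the 3 libraries. Normal diet replicate 6 set most of the second value, which was -0.039 without it. Ces3a exceeded Ces3b in every liver, by 4.97, 3.33 and 6.65 times in HFD + IgG1, 3.99, 2.43 and 2.34 times in HFD + PBS and 8.64, 12.3 and 5.45 times in normal diet, in CPM per kilobase. Read length was not given, and the share of exact windows of Ces3a found in Ces3b was 47.4% at 25 bases, 30.9% at 50 and 9.09% at 100. For Ces3b windows found in Ces3a it was 40.2%, 26.1% and 7.68%, so the split of counts between these genes is uncertain.

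No carboxylesterase was called between HFD + IgG1 and normal-diet livers. The log2 fold changes of the 10 genes were all above 0 and ran from 0.15 for Ces3a to 0.88 for Ces2a and Ces2e, with a median of 0.62, where 50.4% of all genes had a positive value. No member reached 1, which 2.24% of all genes did. That count rested on single livers: 5 members reached 1 without HFD + IgG1 replicate 6 (median 1.03). It was 4 without normal diet replicate 6 (median 0.87) and 0 without HFD + IgG1 replicate 5 (median 0.17). The 2.24% belongs to the fit of all 9 libraries, and the share of all genes was not counted in these refits. Only Ces1c did not overlap, HFD + IgG1 being higher, as in 5.54% of all genes. Only Ces2e had an unadjusted edgeR p under 0.05 (0.0489, edgeR adjusted p = 0.704), as had 3.83% of all genes in that direction, and edgeR, limma-voom and DESeq2 each called 0 of the 10. The share of all genes called was 0.0% by edgeR and 0.406% by DESeq2 in that direction. Without the 3 libraries the median was 0.11 and Ces1d, Ces1f, Ces3a and Ces3b turned negative, at -0.41, -0.12, -0.49 and -0.33. The interval for Ces1f, -1.14 to 2.50 on the log2 scale, shows how wide a difference these 6 livers still allowed.

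Of 9 other carboxylesterase genes, leaving out the pseudogene Ces2d-ps, 3 had enough counts to be tested: Ces1b, Ces2g and Ces4a. Ces1b averaged 83.0 ± 10.6 CPM in HFD + IgG1 livers, 90.3 ± 40.4 CPM in HFD + PBS livers and 113 ± 11.0 CPM in normal-diet livers, and Ces2g averaged 49.9 ± 12, 36.5 ± 7.49 and 42.3 ± 13.8 CPM in the same order (SD, n = 3 each). None of the 3 reached an unadjusted p under 0.05 in edgeR. All HFD + IgG1 livers were below all normal-diet livers for Ces1b (log2 fold change -0.44 ± 0.31, edgeR adjusted p = 0.783), as in 6.41% of all genes. This direction is opposite to that of Ces1c. Ces2f and Ces5a had 0 counts in every liver. Together these 9 genes summed to at most 177 CPM in a liver, against at least 2250 CPM for the 10 described.

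Related genes were counted from lists by role, and none of their genes passed edgeR's adjusted threshold. The counts that follow are of genes with an unadjusted edgeR p under 0.05, to be read against all genes by that measure: 11.4% were lower and 9.41% higher in HFD + PBS than normal-diet livers, and 12.6% were higher and 11.6% lower in HFD + IgG1 than HFD + PBS livers. Among 9 other esterases, 3 were lower in HFD + PBS than normal-diet livers (Pon3, Bche and Aadac) and 5 were higher in HFD + IgG1 than HFD + PBS livers. Aadac, a microsomal lipid and drug hydrolase, averaged 459 ± 190 CPM in HFD + IgG1 livers, 193 ± 25.0 CPM in HFD + PBS livers and 336 ± 99.9 CPM in normal-diet livers. Among 9 neutral lipid hydrolases tested, 5 were lower in HFD + PBS than normal-diet livers, and in HFD + IgG1 against HFD + PBS 3 were higher and 2 lower. Mgll, monoacylglycerol lipase, averaged 114 ± 49.3, 51.4 ± 18.8 and 183 ± 5.48 CPM in HFD + IgG1, HFD + PBS and normal-diet livers, whereas Pnpla2, the cytosolic triacylglycerol lipase ATGL, was lower in HFD + IgG1 than in HFD + PBS livers, at 61.7 ± 7.02 against 101.3 ± 31.6 CPM. Pnpla2 thus differed in the direction opposite to Ces1d and Ces1f in that comparison.

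Of 10 genes of VLDL assembly, 3 were lower in HFD + PBS than normal-diet livers (Apob, Mttp and Mia3) and 5 were higher in HFD + IgG1 than HFD + PBS livers. Apob, the structural protein of VLDL, averaged 9420 ± 2014 CPM in HFD + IgG1 livers, 5864 ± 659 CPM in HFD + PBS livers and 11470 ± 978 CPM in normal-diet livers. Of 11 nuclear receptors and factors that govern drug metabolism, 6 were lower and 1 higher in HFD + PBS than normal-diet livers, and 5 were higher in HFD + IgG1 than HFD + PBS livers. Ppara, the fatty acid receptor, averaged 95.3 ± 39.4, 36.9 ± 6.37 and 116 ± 29.9 CPM in HFD + IgG1, HFD + PBS and normal-diet livers. Nr1i3, which encodes the receptor CAR, averaged 19.9 ± 4.54 CPM in HFD + PBS against 34.4 ± 1.59 CPM in normal-diet livers. Nr1i2 averaged 59.1 ± 5.81, 55.9 ± 4.13 and 81.65 ± 12.2 CPM in HFD + IgG1, HFD + PBS and normal-diet livers. Both HFD groups lay below normal diet for Nr1i2, without overlap. Of 19 other drug metabolism genes, 6 were lower and 2 higher in HFD + PBS than normal-diet livers, and 7 were higher and 1 lower in HFD + IgG1 than HFD + PBS livers. Of 7 tested genes for protein folding and retention in the endoplasmic reticulum, with Gusb among them, 1 was higher in HFD + PBS than normal-diet livers, and 1 was higher and 1 lower in HFD + IgG1 than HFD + PBS livers.

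Marker lists of liver and other cells differed in how far the groups lay apart, and none of their genes passed edgeR's adjusted threshold. The summed level of 10 hepatocyte markers, none at 0, was 97830 to 177500 CPM in HFD + IgG1 livers, 56280 to 115100 CPM in HFD + PBS livers and 84370 to 97670 CPM in normal-diet livers, so HFD + PBS overlapped both others. That of 10 neutrophil markers was 15.8 to 752, 478 to 4993 and 41.7 to 244 CPM in the same order, and that of 10 Kupffer cell and macrophage markers 884 to 3044, 2991 to 3490 and 2112 to 2741 CPM. In both of these HFD + PBS lay above normal diet and overlapped HFD + IgG1. The sum of 6 cholangiocyte markers, 62.9 to 103, 146 to 263 and 54.6 to 77.2 CPM, was above both other groups in HFD + PBS livers. Sums of 8 T and NK cell, 6 B and plasma cell, 7 stellate cell and fibroblast and 6 endothelial markers overlapped between HFD + PBS and normal-diet livers. By the unadjusted edgeR p under 0.05, HFD + PBS was higher than normal diet in 6 neutrophil, 2 Kupffer, 3 cholangiocyte and 1 of the T and NK cell markers, in 0 of the B cell, stellate and endothelial ones, and lower in 1 hepatocyte marker. In HFD + IgG1 against HFD + PBS, 3 hepatocyte markers were higher, and 2 neutrophil, 6 Kupffer, 3 cholangiocyte, 5 T and NK cell, 2 stellate, 1 endothelial and 0 B cell markers were lower. Muscle, pancreatic acinar, intestinal and adipocyte markers stayed at or below 53.3 CPM in sum. Ckm, Myh4, Cpa1, Pnlip, Amy2a5, Try4, Sis and Alpi were at 0 in every liver. The muscle sum was 1.78 to 4.49 CPM in HFD + IgG1, 7.22 to 11.95 in HFD + PBS and 0.779 to 1.5 in normal-diet livers. The adipocyte sum was 6.49 to 19.7, 18.9 to 35.05 and 5.79 to 8.12 CPM in the same order. In HFD + PBS livers both lay above normal diet, and the adipocyte sum overlapped HFD + IgG1. Ces1c and Ces1g differed by at most 1.26-fold between any 2 groups. The part of the cell markers in the results, for these 2 genes or for the other members, was not tested. Nothing in the labels says more about the replicates than that they were separate mice. The p-values set the differences between group means against the spread estimated from these few livers.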

How the data were processed

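Per the labels' protocols, liver RNA was extracted with Trizol and 1 µg per mouse went into NEBNext Ultra RNA libraries for Illumina. The authors deposited 1 table of raw read counts per Ensembl gene, with 1 column per library. The submitters' processing notes name the mm10 build and Bowtie 0.12.2, with no role stated. Counting program, annotation, read length and strand setting: not given in the sources used here. Reads shared by near-identical carboxylesterases may have been split, and antisense reads cannot be told apart. Of 54532 identifiers, 54495 were named from GENCODE M21.

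Counts were analysed with edgeR 4.0.16 in R 4.3.3: filterByExpr (minimum count 10, total 15) kept 14763 genes, libraries were scaled by TMM, and a robust quasi-likelihood fit of 3 group means over all 9 libraries gave two-sided p-values with Benjamini-Hochberg adjustment over all tested genes (threshold 0.05). Standard errors are the log2 fold change over the root of F, and 95% intervals use the t distribution with the fit's degrees of freedom (7.26 to 10 for members). DESeq2 1.42.0 and limma-voom 3.58.1, other scalings and filters, the replicate block, a term for Y-linked counts, and leaving out libraries were alternatives. The steps were tested on simulated counts. Transcripts were aligned with Biopython 1.88. All 10 members are named whatever their values; of other lists, up to 3 genes with the smallest p per comparison. Members and lists were chosen with earlier results of these data known. No library pair was identical.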

Additional observations from a re-analysis of the deposited data

How the results depend on the processing

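Of 190 log2 fold changes of members recomputed for HFD + PBS against normal diet, 183 kept their direction, as did 199 of 200 for HFD + IgG1 against HFD + PBS and 188 of 200 for HFD + IgG1 against normal diet. For the 3 comparisons in this order, genes called by adjusted p numbered 1184, 1265 and 111 with DESeq2, 274, 57 and 6 with no filter on low counts, and 0 with limma-voom, other scaling or a 1 CPM filter. Fits of only the 6 libraries compared called 184 genes in the first and 3 in the third, the single IgG1-labelled antibody library gave 556 and 3 in the last 2, and leaving out the 3 libraries at odds with their labels gave 2 in the first. Leaving out 1 library at a time gave 0 to 576, 0 to 2356 and 0 to 6, each highest without HFD + IgG1 replicate 6; without HFD + PBS replicate 6 the first was 14. Members called were 4, 5 and 0 with DESeq2, 2 in the first with only 6 libraries, 4 in the second with the IgG1-labelled library, and 0 to 2, 0 to 5 and 0 without 1 library.

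Signs turned as follows. For HFD + PBS against normal diet, leaving out 1 library moved Ces1c between -0.042 and 0.35, Ces1g between -0.25 and 0.093 and Ces2c between -2.46 and 1.05, and Ces1c was -0.082 without the 3 libraries. For HFD + IgG1 against HFD + PBS it moved Ces1c between -0.014 and 0.36. For HFD + IgG1 against normal diet it moved Ces1d between -0.11 and 0.93 and Ces3a between -0.18 and 0.65; without the 3 libraries Ces1d was -0.41, Ces1f -0.12, Ces3a -0.49 and Ces3b -0.33, and Ces3a was -0.023 with the Y-linked term. The cause was not tested. The replicate block called 0 genes and 0 members in each comparison and turned Ces1f to -0.15, Ces2c to -0.25 and Ces3a to -0.35 in the last. Same-numbered libraries correlated at -0.49 to 0.01 in their deviations from group means, which showed no sign of pairing by number. With so few same-numbered libraries this cannot exclude pairing. With 3 livers a group and 13 to 88 counts in the lowest Ces2c and Ces1f libraries, differences in these genes are the least precise.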
